A study of Homo sapiens with 5 samples.

Results

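Abiraterone inhibits CYP17A1, the enzyme that turns pregnane steroids into androgen precursors, and 10 genes of the androgen synthesis pathway around it were examined for histone H2A acetylated at lysine 130 (H2A-K130ac). The genes were CYP17A1, CYP11A1, CYP19A1, HSD3B1, HSD3B2, HSD17B3, AKR1C3, SRD5A1, SRD5A2 and STAR. A peak was assigned to a gene when it lay within 100 kb of the gene's limits, or when the authors' annotation gave it that gene's symbol. Within 100 kb lay 40 of the 67807 abiraterone peaks and 79 of the 91399 Romidepsin peaks. By either rule, 42 and 84 peaks were assigned, and 9 of the 10 genes had limits in the annotation.

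The study mapped H2A-K130ac by chromatin immunoprecipitation and sequencing (ChIP-seq) in prostate cancer cells. The values here come from C4-2B, a castration-resistant human line derived from LNCaP, treated with abiraterone (1 library) or with Romidepsin, an inhibitor of histone deacetylases (1 library). Both libraries are of 1 established line, which their sample labels call breast cancer. No untreated C4-2B library was analysed here. For the C4-2B ChIP-seq no dose or time is stated. The sample labels repeat the VCaP protocol of 0.5 µM Romidepsin, with 18 h in the series' design text, and the study treated C4-2B cells at other doses for its ChIP-qPCR. The study says that samples were run in duplicate, and whether these were pooled into the 1 list per treatment is not stated. With 1 library per treatment there is no replicate error and no test, so each difference below describes these libraries and not the treatments.

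Steroidogenesis starts when cholesterol is carried into mitochondria and its side chain is cut. CYP17A1 and the 3β-hydroxysteroid dehydrogenases then lead to androstenedione, 17-ketosteroid reductases make testosterone from it, 5α-reductases make dihydrotestosterone, and aromatase makes oestrogens. Prostate tumours that progress after castration can take up adrenal precursors and run the later steps of this pathway themselves. Acetylation of histones is a mark of accessible and active chromatin, and a peak reports where the antibody enriched DNA, not how much RNA a gene made.

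Across the 9 genes with limits, the Romidepsin peaks outnumbered the abiraterone peaks around each gene except STAR. Peaks lay within the limits of 5 of 9 genes under abiraterone (47.2% of the 18343 genes with limits had such a peak) and of 6 of 9 under Romidepsin (59.1% of all genes). CYP17A1, CYP11A1 and STAR, which encode the early steps, had 0 peaks within their limits under either treatment, as did 30.6% of all genes. These 3 genes span 7.00, 23.0 and 8.38 kb. At the mean density of the lists their limits would hold 0.155 to 0.509 abiraterone and 0.209 to 0.687 Romidepsin peaks each. A count of 0 therefore cannot tell these genes from that density.

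Limits were given only to genes nearest to some peak, which raises the shares of all genes with a peak. Each peak has a fold, the authors' enrichment over a control, and a −log10 q, which is larger for a peak less likely to be a false call. The control of these lists is input DNA by the names the authors gave them, while the study's reporting form names vehicle-treated cells, so which of them the folds refer to could not be settled. All 9 genes had a peak within 100 kb in both lists, where 97.4% of all genes did under abiraterone and 99.4% under Romidepsin. More Romidepsin than abiraterone peaks lay within 100 kb of 8 of the 9 genes, against 71.1% of all genes, in a list that is also the longer by its total. The order turned when only peaks with a −log10 q of 2 or more were counted. Around all 9 genes there were then 7 abiraterone peaks and 1 Romidepsin peak. The study's reporting form names this value, a q of 0.01, as its cutoff for calling peaks, and gives a peak count only for VCaP. Among all C4-2B peaks, 24.9% from abiraterone and 2.73% from Romidepsin reached it, so most peaks counted here fall short of that cutoff. The authors' annotation put a peak in a promoter class, within 3 kb of a start, for 3 of 9 genes under abiraterone (21.1% of all genes) and for 4 of 9 under Romidepsin (32.7% of all genes). The 3 genes under abiraterone were HSD17B3, AKR1C3 and CYP19A1, and the 4 under Romidepsin were CYP17A1, SRD5A2, AKR1C3 and CYP19A1.

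**Figure D1:**
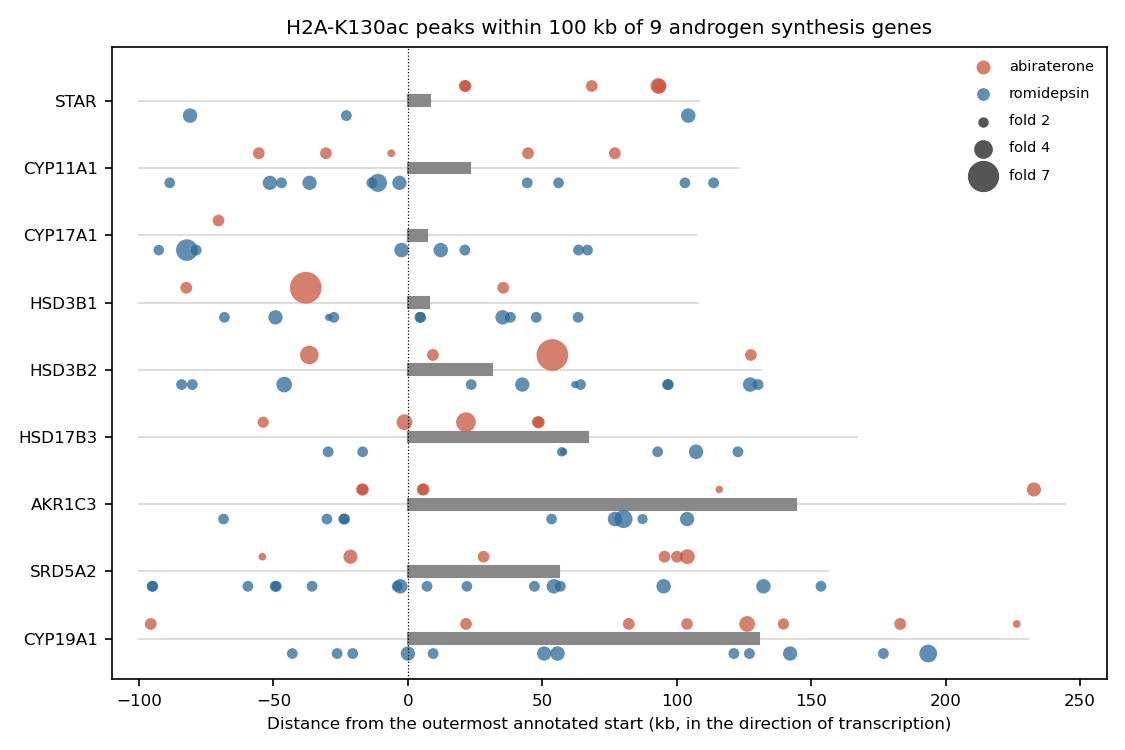
Each row is a gene, with distance in kb from its outermost annotated start on the horizontal axis in the direction of transcription, a grey bar for the gene and a thin line for the 100 kb on each side. Points are single peaks, abiraterone above and Romidepsin below the line, with area growing with the square of the authors' fold over control. The grey bars of STAR, CYP11A1 and CYP17A1 hold no point, and the large point near HSD3B1 and HSD3B2 is 1 shared abiraterone peak of fold 7.60.

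The starts to which promoter-class peaks were measured in genes with a single annotated start are those of CYP17A1, SRD5A2 and HSD17B3, and their RefSeq promoters (GRCh38.p14, 250 bases before and 50 after the start, on the sense strand) are shown here because these genes had such a peak in 1 treatment each. The peaks lie further upstream than these bases. Capitals mark AGGTCA or its reverse complement TGACCT, a hexamer that nuclear receptors bind, which was searched on both strands together with AGAACA, bound by the androgen receptor, and TCACNCCAC, a sterol regulatory element.
CYP17A1, chr10:102837364-102837663, minus strand: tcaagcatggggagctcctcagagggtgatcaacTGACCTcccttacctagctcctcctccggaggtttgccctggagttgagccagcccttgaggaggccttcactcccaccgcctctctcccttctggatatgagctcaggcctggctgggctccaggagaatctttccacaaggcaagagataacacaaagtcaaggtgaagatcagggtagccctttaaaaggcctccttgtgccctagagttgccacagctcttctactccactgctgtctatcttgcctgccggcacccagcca
SRD5A2, chr2:31580889-31581188, minus strand: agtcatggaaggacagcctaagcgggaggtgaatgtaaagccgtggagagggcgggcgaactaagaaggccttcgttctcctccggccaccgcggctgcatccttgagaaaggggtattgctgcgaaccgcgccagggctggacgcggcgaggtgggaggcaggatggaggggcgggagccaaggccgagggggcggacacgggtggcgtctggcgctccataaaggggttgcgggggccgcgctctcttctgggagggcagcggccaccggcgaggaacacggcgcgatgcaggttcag
HSD17B3, chr9:96302127-96302426, minus strand: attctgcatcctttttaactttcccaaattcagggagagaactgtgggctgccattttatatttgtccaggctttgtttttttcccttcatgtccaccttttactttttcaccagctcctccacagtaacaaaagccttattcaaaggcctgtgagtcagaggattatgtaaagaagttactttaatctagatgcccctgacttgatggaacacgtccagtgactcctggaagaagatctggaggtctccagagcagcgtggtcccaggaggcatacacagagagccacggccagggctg
Of the 3, the CYP17A1 promoter held the AGGTCA hexamer, on the opposite strand with its first base 216 bases before the start. AGGTCA was in 13.8% of 35116 human promoters, AGAACA in 14.8% and TCACNCCAC in 1.13%. The 9 members examined, which left out STAR, had 17 promoter windows, because some genes have several starts. AGGTCA was in 5 of these windows, from CYP17A1, CYP19A1 and HSD3B1. AGAACA was in 3, from CYP19A1 and HSD3B2. The HSD3B1 windows overlap and share 1 hexamer, and only some CYP19A1 windows held either motif. TCACNCCAC was in 0 of the members' windows. The SRD5A2 promoter had a GC content of 67.3%, the CYP17A1 promoter 56.3% and the HSD17B3 promoter 46.3%, where the median of all promoters was 58.7% (quartiles 47 and 68%).

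STAR, which delivers cholesterol to the inner mitochondrial membrane, lies at chr8:38000218-38008600 (hg19, as all peak and gene positions here). It was the only member with more abiraterone than Romidepsin peaks within 100 kb, at 5 and 3. Of all genes, 8.77% had as few Romidepsin peaks. The nearest abiraterone peaks were at chr8:37987017-37987145 and chr8:37987344-37987468, in intron 12 of ASH2L and 21455 and 21132 bp past the STAR start, with folds of 2.83 and 2.82 over control. The annotation named STAR as the nearest gene of these 2 peaks and of 0 Romidepsin peaks. The nearest Romidepsin peak was 22872 bp upstream, in the promoter class of BAG4, so the treatments did not share a site in this window.

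CYP11A1, which cleaves the side chain of cholesterol, lies at chr15:74637113-74660081 and had peaks only outside its limits, 5 under abiraterone and 11 under Romidepsin within 100 kb. Upstream of its start the Romidepsin list had 3 intergenic peaks annotated to the gene, at 3147, 11113 and 13382 bp. Their folds were 3.44, 4.35 and 2.61, and 6.07% of the Romidepsin list had a fold as high as the middle one. The abiraterone list had 2 such peaks, at 6178 bp with a fold of 1.89 and at 30484 bp with a fold of 2.82. Upstream of CYP11A1 no peaks of the 2 treatments shared a base pair, and the closest were 2485 bp apart. Downstream, in intron 11 of CCDC33, an abiraterone peak at chr15:74615021-74615382 and a Romidepsin peak at chr15:74615281-74615689 did overlap.

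CYP17A1, the target of abiraterone, lies at chr10:104590288-104597290 and had 1 abiraterone peak and 8 Romidepsin peaks within 100 kb. The abiraterone peak, chr10:104667862-104668137, was intergenic, nearest to CNNM2 and 70572 bp upstream of the CYP17A1 start, with a fold of 2.82. Of all genes, 92.1% had an abiraterone peak at least as near to their outermost start, and 8.06% had as few within 100 kb. The single abiraterone peak is a density of 4.83 per Mb with an exact 95% Poisson interval of 0.122 to 26.9, which includes the 22.2 per Mb of the whole list. A count of 1 is therefore too small to tell a scarcity of abiraterone peaks around CYP17A1 from that density.

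Under Romidepsin, 3 peaks were annotated to CYP17A1. The peak nearest to the start, chr10:104599648-104600089, was in the promoter class 2358 bp upstream, 442 bp wide and with a fold of 3.48, and 24.1% of all genes had a Romidepsin peak as near. A second of the same fold lay in an intron of WBP1L, 5223 bp past the 3′ end of CYP17A1. The third, classed as 3′ UTR and with a fold of 2.61, lay 14204 bp past that end and so outside any CYP17A1 transcript of the annotation. The promoter-class peak was thus the only peak within 5 kb of CYP17A1 in either list. It had a −log10 q of 1.29.

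The Romidepsin peak with the highest fold around any member was also in the CYP17A1 window, at chr10:104679472-104680056. It was 82182 bp upstream, in the promoter class of CNNM2, at fold 5.20 and −log10 q 2.86. Among the 79 Romidepsin peaks it alone had a −log10 q of 2 or more. So 1 of 9 members had such a Romidepsin peak within 100 kb, where 22.1% of all genes did.

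HSD3B1 and HSD3B2 encode the 3β-hydroxysteroid dehydrogenases, which convert Δ5 steroids to Δ4 steroids, and lie side by side at chr1:120049826-120057681 and chr1:119957743-119989122, so that their 100 kb windows share peaks. Between them was the abiraterone peak of highest fold around any member, chr1:120011476-120011854. Its fold was 7.60 and its −log10 q 9.01, and 0.139% of the abiraterone list had a fold as high. It was intergenic, 37972 bp upstream of the HSD3B1 start and 22354 bp past the 3′ end of HSD3B2, and no Romidepsin peak overlapped it. The nearest was 7955 bp away with a fold of 1.74, and 99.97% of the Romidepsin list had a fold as high.

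Within HSD3B1 there were 0 abiraterone and 2 Romidepsin peaks, at 4493 and 4779 bp past the outermost start in intron 3, both with a fold of 2.61. Within HSD3B2 there was 1 peak under each treatment, both in intron 3, at 9324 bp past the start with a fold of 2.85 under abiraterone and at 23563 bp with a fold of 2.58 under Romidepsin. The window counts were 3 abiraterone and 10 Romidepsin peaks for HSD3B1, and 4 and 11 for HSD3B2. Another abiraterone peak with a −log10 q over 2, at 2.87, lay in intron 1 of HAO2, 36658 bp upstream of HSD3B2, with a fold of 4.48. Beyond HSD3B1, near HSD3BP4, an abiraterone peak at chr1:120085295-120085820 overlapped a Romidepsin peak at chr1:120085052-120085555. None of the HSD3B peaks was in a promoter class of either gene. The HSD3B genes and pseudogenes are alike in sequence, so reads may be split between them.

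HSD17B3, the reductase that makes testosterone from androstenedione in the testis, lies at chr9:98997589-99064434 and was the member with the abiraterone peak closest to an annotated start. The peak chr9:99065687-99066239 was in the promoter class 1253 bp upstream, 553 bp wide, at fold 3.80 and −log10 q 2.66. Of all genes, 9.21% had an abiraterone peak as near to their outermost start. In intron 2 a peak at chr9:99042599-99042840 reached fold 4.74 with −log10 q 3.80, and 3.08% of the list had a fold as high. The other 2 abiraterone peaks within the gene, 125 and 126 bp wide, lay side by side in intron 3 with folds of 2.85.

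The Romidepsin peaks of HSD17B3 lay elsewhere. The 2 within the gene were in introns 9 and 8, near the 3′ end, with folds of 1.74 and 2.26. These are low for the list, of which 99.97% and 96.7% had folds as high. The nearest Romidepsin peak upstream was 16823 bp from the start, in intron 12 of SLC35D2, with a fold of 2.58. Within 100 kb there were 5 abiraterone and 7 Romidepsin peaks, and the closest of different treatments were 8385 bp apart.

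AKR1C3, which makes testosterone outside the testis, has annotated limits of chr10:5005454-5149878, because its longest transcript starts far upstream and spans AKR1C2. Within these limits were 3 abiraterone and 5 Romidepsin peaks. The innermost start that the lists give to AKR1C3 is 5119973. Counted from it, the peaks within the limits of all 9 members came to 10 abiraterone and 15 Romidepsin instead of 12 and 20. RefSeq has a start further in, with its promoter at chr10:5094164-5094463 (GRCh38.p14), which was not used for this count. The abiraterone peak nearest to the start at 5119973, chr10:5121236-5121727, was in the promoter class 1263 bp past it. Its fold of 1.80 was among the lowest of its list (99.5% were as high). The other 2 abiraterone peaks, at chr10:5010944-5011068 and chr10:5011296-5011420, carried the label of exon 10 and intron 10 of an AKR1C1 transcript. Reads from the AKR1C genes, which are near-identical copies of each other in parts, may be split between them, so these assignments are uncertain.

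Under Romidepsin, AKR1C3 had 3 peaks in intron 2 of its long transcript. That at chr10:5082476-5083574 was 1099 bp wide, the widest around any member, with a fold of 3.48. That at chr10:5085634-5085992 had a fold of 4.35, and the last, 125 bp wide, had 3.44. A promoter-class peak lay 1768 bp past an internal start with a fold of 2.45, and the fifth peak within the limits lay in the promoter class of AKR1C2. No Romidepsin and abiraterone peaks of this gene were closer than 6322 bp.

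The 5α-reductases turn testosterone into dihydrotestosterone. SRD5A2 lies at chr2:31749656-31806040 and had the most Romidepsin peaks of any member, 16 within 100 kb against 6 under abiraterone. Of all genes, 13.4% had as many Romidepsin peaks. The density was 62.4 per Mb with an exact 95% Poisson interval of 35.7 to 101, above the 29.9 per Mb of the whole list. This was the only member whose interval lay apart from the density of its list, among 18 intervals computed. No correction for that number of intervals was made, and a miss by counting error alone is not unusual among them. The low end of 35.7 was also close to the 34.8 per Mb of the windows of all genes. Of the 16 peaks, 4 were narrow peaks standing in close pairs, and the interval with such pairs merged was not computed.

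Within SRD5A2 the Romidepsin list had 4 peaks, in the 3′ UTR (fold 3.48), in exon 3 of 6 (2.61) and in intron 2 at 21955 and 7130 bp past the start (2.58 and 2.61). A promoter-class peak at chr2:31808871-31809269 lay 2831 bp upstream with a fold of 3.48, next to an intergenic peak 3968 bp upstream with a fold of 2.61. Under abiraterone, SRD5A2 had 1 peak within its limits, in intron 2 at chr2:31777443-31777894 with a fold of 2.82, and none closer to the start than 21351 bp. The Romidepsin peaks around this gene were many but of common height, with none above a fold of 3.48, which 24.4% of the list reached. A further 5 Romidepsin and 2 abiraterone peaks beyond 100 kb were annotated to SRD5A2, up to 209150 and 184400 bp upstream, the only members' peaks that the symbol alone brought in.

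SRD5A1, the isoform found in skin, liver and prostate tumours, had 0 rows under its symbol in either list and so no limits. In RefSeq order it lies between NSUN2 and TENT4A, whose limits in the files are 93.1 kb apart on chromosome 5. Without limits the 100 kb rule could not be applied, so this narrower interval stood in for it. The interval held 0 abiraterone and 2 Romidepsin peaks, at chr5:6680312-6680526 with a fold of 3.44 and at chr5:6687715-6687839 with a fold of 3.45, both annotated to TENT4A. Outside it, Romidepsin peaks lay at chr5:6620183-6620412 (fold 4.30, promoter class of NSUN2) and chr5:6761684-6762081 (fold 2.58). An abiraterone peak annotated to TENT4A lay at chr5:6731331-6731617 (fold 2.69). SRD5A1 is nearest to none of the peaks by the annotation, which does not say that it lacks the mark.

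CYP19A1, the aromatase that makes oestrogens from androgens, lies at chr15:51500254-51630795 and had the most peaks within its limits, 4 under abiraterone and 6 under Romidepsin. Its 4 annotated starts are those of transcripts nearest to some peak, and RefSeq has more. The gene is long, and the mean densities of the lists would give 2.89 and 3.90 peaks. A Romidepsin peak at chr15:51630779-51631219 covered the outermost start, at fold 3.44 and −log10 q 1.29, and 1.61% of all genes had a Romidepsin peak over their outermost start. It was the only member's peak in the promoter class of up to 1 kb in either list.

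Towards the other end of CYP19A1, an abiraterone peak at chr15:51504238-51504628 was labelled exon 10 of 11 and reached fold 3.78 with −log10 q 2.66. A Romidepsin peak with a fold of 2.61 lay 472 bp from it, in intron 10. Promoter-class peaks at internal starts were 1523 bp past a start under abiraterone, with a fold of 2.83, and 1202 bp past another under Romidepsin, with a fold of 2.61. The promoter-class peaks of the lists were thus at different starts of the gene. Within 100 kb there were 8 abiraterone and 12 Romidepsin peaks.

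**Figure D2:**
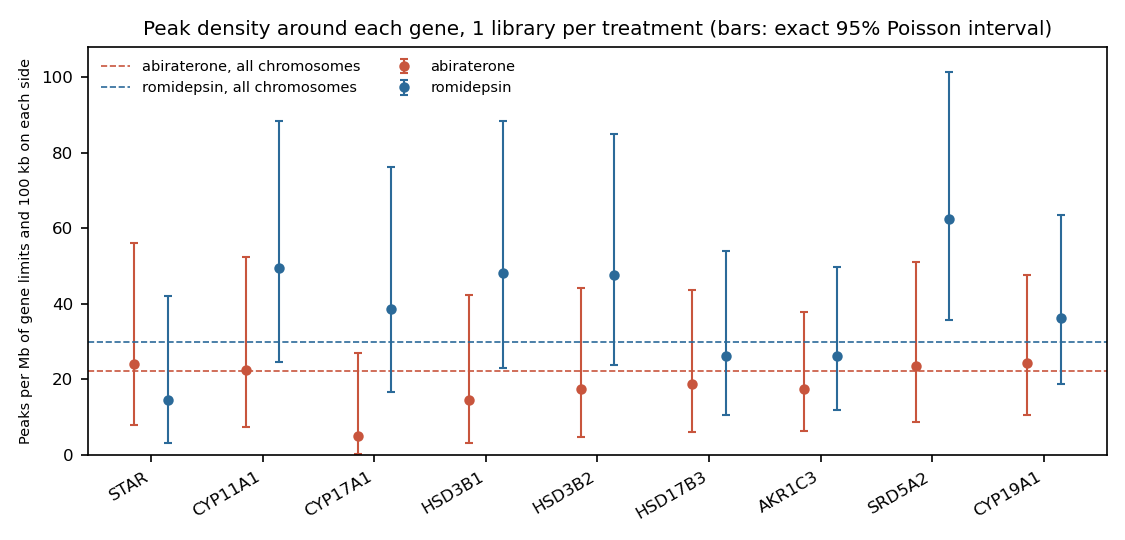
Peaks per Mb of each gene's limits and 100 kb on each side are shown for abiraterone and Romidepsin, with exact 95% Poisson intervals for counting error and dashed lines at the density of each whole list, 22.2 and 29.9 per Mb. The intervals of the treatments overlap for each gene, and the SRD5A2 interval under Romidepsin, 35.7 to 101, lies above its line. Narrow peaks standing in close pairs were not merged.

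With the windows merged into 8 regions of 2.14 Mb, so that shared peaks counted once, the abiraterone density was 18.7 per Mb (exact 95% Poisson interval 13.4 to 25.5) and the Romidepsin density 37.0 per Mb (29.3 to 46.1). The intervals include the 22.2 and 29.9 per Mb of the whole lists, as well as the 24.8 and 34.8 per Mb of the merged 100 kb windows of all genes. Of the 119 peaks, 33.6% were from abiraterone (exact 95% binomial interval 25.2 to 42.8%), where abiraterone gave 42.6% of all peaks of the lists. Leaving out each gene in turn gave 17.7 to 20.2 abiraterone and 33.5 to 39.4 Romidepsin peaks per Mb, lowest for Romidepsin without SRD5A2. Without HSD17B3, AKR1C3 or STAR the Romidepsin interval began at 30.1, 30.5 and 31.1 per Mb, above the whole list and below all gene windows. With 50 or 250 kb on each side, the Romidepsin densities of 42.6 (32.3 to 55.3) and 40.3 (34.7 to 46.6) per Mb lay above the whole list. A difference in peak density between the members together and the windows of all genes was thus not detectable at 100 kb with these counts.

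Few sites around the members were called under both treatments. Of the 40 abiraterone peaks, 2 overlapped a Romidepsin peak (5%, against 4.04% of all abiraterone peaks), and the same 2 sites held 2 of the 79 Romidepsin peaks (2.53%, against 2.90% of all). These were the sites in CCDC33 near CYP11A1 and near HSD3BP4 beyond HSD3B1. Within 1 kb of a peak of the other treatment lay 4 abiraterone peaks (10%, against 10.9%) and 4 Romidepsin peaks (5.06%, against 7.62%). The added sites were the 3′ end of CYP19A1, at 472 bp, and a place near XDH downstream of SRD5A2, at 107 bp.

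**Figure D3:**
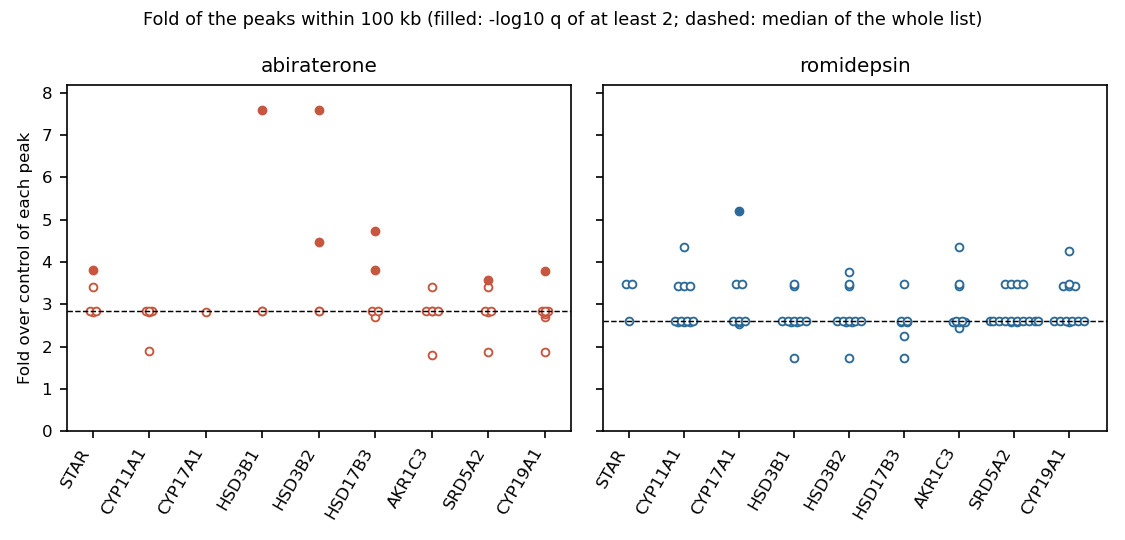
Each point is a peak within 100 kb of the gene on the horizontal axis, with the authors' fold over control on the vertical axis, which starts at 0, and with filled points for a −log10 q of at least 2. The dashed lines are the medians of the whole lists, 2.83 for abiraterone and 2.61 for Romidepsin, and most points lie on or near them. Folds were not normalized between the lists, so the panels are read separately.

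Most of the members' peaks were of ordinary height for their list. The median fold was 2.84 for the 40 abiraterone peaks and 2.61 for the 79 Romidepsin peaks, where the lists had 2.83 and 2.61. A −log10 q of at least 2 was reached by 7 abiraterone peaks (17.5%, against 24.9% of the list) and by 1 Romidepsin peak (1.27%, against 2.73%). These 7 abiraterone peaks lay around 6 of 9 members, where 71.2% of all genes had such a peak within 100 kb. They were the HSD3B site, the HAO2 intron near HSD3B2, the promoter and intron 2 of HSD17B3, exon 10 of CYP19A1, a site near XDH downstream of SRD5A2 (fold 3.58) and an intron of EIF4EBP1 in the STAR window (fold 3.80).

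The fold had few distinct values, 12 among the 79 Romidepsin peaks and 17 among the 40 abiraterone peaks. Exactly the same rounded fold of 2.61 was carried by 35 of the Romidepsin peaks (44.3%, against 28.3% of the list), and 2.85 by 10 of the abiraterone peaks (25%, against 14.6%). Read counts are not in the lists, and what this step is worth in reads was not tested. By class, 10% of the abiraterone and 17.7% of the Romidepsin peaks in the windows were in a promoter class of some gene, where 7.58% and 8.85% of the lists were. Intergenic were 37.5% and 36.7%, against 48.4% and 48%. The windows were chosen by nearness to genes, and whether that choice tilts the classes was not tested. Shares in the 100 kb windows of all genes were not computed, so these differences are not assigned to the members.

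The symbol and the position of a peak often named different things. The annotation gave a member's symbol to 22 abiraterone and 45 Romidepsin peaks, of which 11 and 19 lay within that gene's limits and 11 and 26 outside. By class, the 22 were 9 intronic, 8 intergenic, 3 promoter and 2 exonic, and the 45 were 20 intergenic, 16 intronic, 5 promoter, 2 exonic and 2 in a 3′ UTR. Some of the intronic labels were of a neighbour, as ASH2L for STAR and WBP1L for CYP17A1. At the edge of the 100 kb rule, the last peaks inside were at 98853 bp (HSD3B2) under Romidepsin and 96173 bp (HSD3B2) under abiraterone, and the first outside at 100787 bp (CYP11A1) and 104224 bp (HSD3B1). Their folds were 2.61, 2.83, 3.48 and 2.76.

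Beside the members, 37 other genes of steroid metabolism were counted, of which 32 had limits. Peaks lay within the limits of 16 under abiraterone and of 24 under Romidepsin, with 15 having both and 7 neither. That is 50% and 75% of the 32, where 47.2% and 59.1% of all genes had such a peak. Within 100 kb the median counts were 5 abiraterone and 9.5 Romidepsin peaks, where the members had 5 and 10 and all genes had 6 and 9. The 3 sets thus had medians within 1 peak of each other.

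Among the genes of cholesterol delivery and electron donors, 8 of 8 had a Romidepsin peak within their limits and 4 of 8 an abiraterone peak. SCARB1, a receptor for lipoprotein cholesterol, had the most, with 5 abiraterone and 7 Romidepsin peaks. POR, which passes electrons to microsomal P450 enzymes such as CYP17A1, had an abiraterone peak 193 bp upstream of a start with a fold of 2.85. STARD3, a cholesterol transporter related to STAR, had an abiraterone peak 963 bp upstream of its start. In this group the promoter-class peaks of up to 1 kb were both from the abiraterone list, and the share of all genes at 1 kb was not computed. Those 1 to 3 kb from a start came from both lists, with a Romidepsin peak 2446 bp upstream of STARD3 among them.

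In the mineralocorticoid and glucocorticoid branch, 1 of 4 genes with limits had an abiraterone peak within them and 2 a Romidepsin peak. HSD11B1, which reactivates cortisol from cortisone, held 7 abiraterone and 2 Romidepsin peaks, including an abiraterone peak 942 bp past a start at fold 3.77 and −log10 q 2.66. Among the genes that interconvert androgens and oestrogens, 5 of 8 had an abiraterone and 6 of 8 a Romidepsin peak within their limits, and AKR1C1 had the most at 4 and 4. Start sites there had abiraterone peaks within 1 kb in AKR1C4 (206 bp, fold 3.40), AKR1D1 (598 bp, fold 3.68) and HSD17B6 (345 bp, fold 2.83), the last an enzyme of the backdoor route to dihydrotestosterone. The promoter-class Romidepsin peaks of this group lay 1 to 2 kb from a start.

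Of the genes of conjugation and its reversal, 1 of 4 with limits had an abiraterone and 2 of 4 a Romidepsin peak within them. STS, the sulfatase that frees steroid precursors, had 1 abiraterone and 9 Romidepsin peaks, the widest gap within limits among the genes counted. It is also the longest of these genes, at 207 kb, and counts within limits were not adjusted for length. Within 100 kb STS had 5 and 16 peaks, and STARD3 had a wider gap, at 3 and 15. SCARB1, HSD11B1, SLCO1A2 and NR5A2 are likewise the longest genes with limits in their groups. UGT2B7, which glucuronidates steroids, had a Romidepsin peak 286 bp past a start. Of the 3 uptake carriers, 2 had a peak within their limits under each treatment. SLCO1A2, an organic anion carrier, had 5 abiraterone and 4 Romidepsin peaks within its limits and a Romidepsin peak 19 bp from a start with a fold of 4.35. Of the 5 transcription factors of steroidogenesis, 3 had an abiraterone and 4 a Romidepsin peak within their limits, most in NR5A2, with 7 and 5. Promoter-class peaks were found in 10 of the 32 pathway genes with limits under each treatment, or 31.2%, where 21.1% of all genes had one under abiraterone and 32.7% under Romidepsin.

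**Figure D4:**
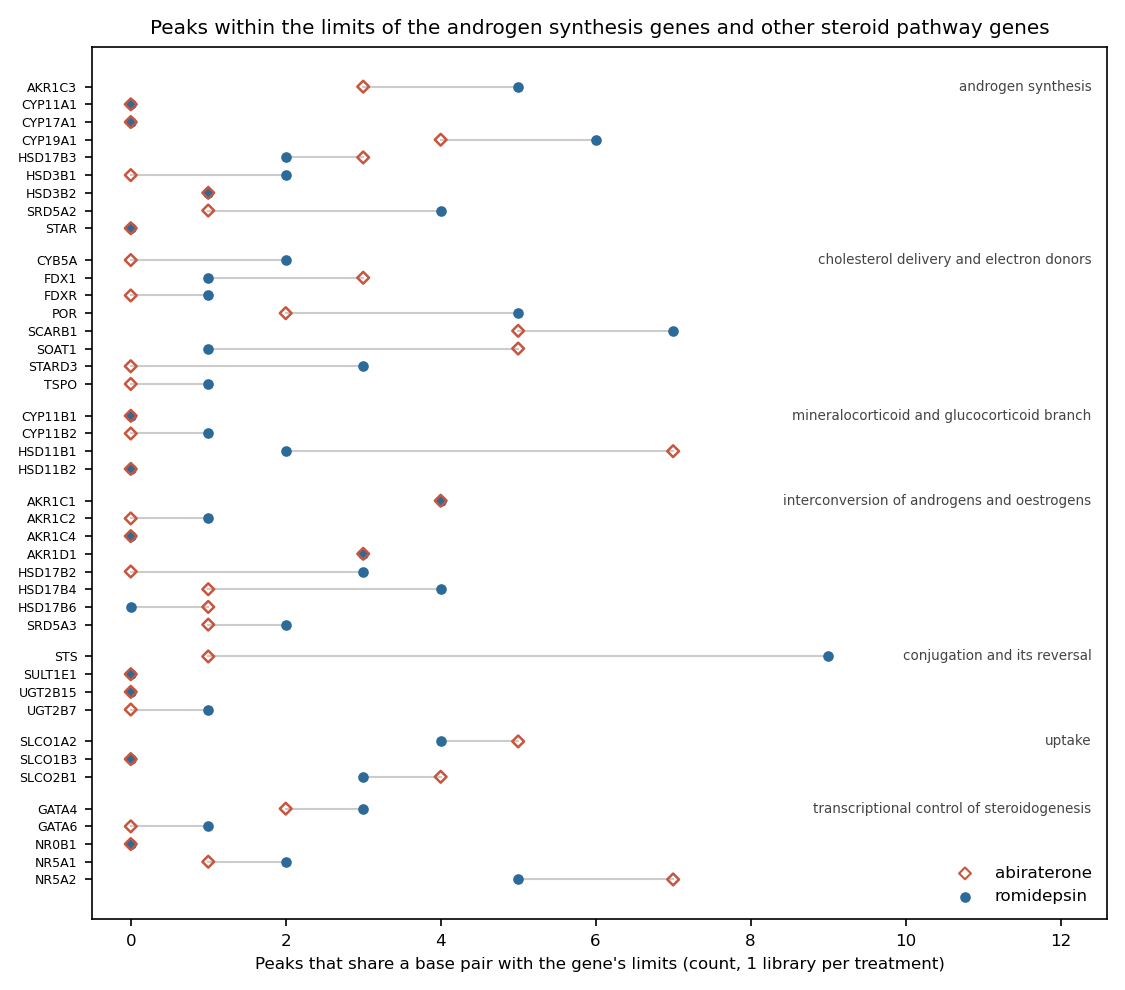
The number of peaks within each gene's limits is shown on the horizontal axis for the 9 members with limits and the 32 other pathway genes with limits, grouped by role, with open diamonds for abiraterone and filled circles for Romidepsin. STS, the longest gene shown, has 1 and 9 peaks and HSD11B1 7 and 2, while CYP11A1, CYP17A1 and STAR are at 0 for both treatments. Counts are not adjusted for gene length.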

How the data were processed

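H2A-K130ac ChIP-seq peak lists of C4-2B cells were analysed, 1 library per treatment. The 3 VCaP samples were not analysed here. Per the paper's methods, the authors aligned reads with Bowtie and called peaks with MACS, and MACS2 and hg38 are named in the submitters' processing notes. The positions are nonetheless those of hg19: peaks on chromosome 1 reach 249191832, while the last gene there in GRCh38.p14 ends at 248937099, and the transcript identifiers are those of UCSC for hg19. The score of each peak, deposited by the authors, is the whole part of 10 times the −log10 p-value. Fold over control (a ratio), −log10 p and −log10 q come from the same peak caller, as deposited by the authors, and were not normalized between libraries. Read counts are not in the lists, so depth is unknown. The annotated version of each list lacks 1 peak, which stands in its header line.

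Gene limits were the outermost start and end that the annotated tables of both lists give to a symbol, and a shared base pair put a peak within them. Annotated starts were likewise those of transcripts nearest to some peak, so further starts of a gene can be missing. Distances run to the nearest base of a peak. Densities carry exact 95% Poisson intervals and shares exact 95% binomial intervals, which cover counting error only. The counting was checked on simulated lists. All 10 members were named. Other pathway genes were named where a peak lay within 1 kb of a start or where they held the most peaks of their group. Their peaks 1 to 3 kb from a start were counted under both treatments but mostly not listed gene by gene. Neighbours were named where they are the annotated gene of a peak. Members and lists were chosen with earlier results of these data known. No test was made, because each treatment has 1 library. Alternatives were windows of 50 and 250 kb, a −log10 q of at least 2, the 20000 peaks of highest −log10 p, the conservative set, promoter classes of up to 1 kb, other overlap rules and, chosen after seeing the data, AKR1C3 from the innermost start that the lists give. No hg19 genome was used, so sequences of peaks are not shown. RefSeq promoters were found for 9 of the 10 members, STAR left out. Python 3.11.15, numpy 2.4.6, pandas 2.3.3, scipy 1.17.1 and matplotlib 3.10.9 were used.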

Additional observations from a re-analysis of the deposited data

How the results depend on the processing

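No paired analysis was possible because 1 peak list per treatment was analysed, with no replicates to pair. Of 42 alternative values, 20 stayed near the reported one and 22 moved. Results that turn on the stringency of the peak call moved most. Where a −log10 q of 2 or more was required, the abiraterone peaks numbered 2 within the members' limits (12 as reported), 7 within 100 kb (40), or 3.28 per Mb, and 5 by symbol (22). The Romidepsin peaks numbered 0 within the limits (20), 1 within 100 kb (79), or 0.468 per Mb, around 1 member, and 0 by symbol (45). Pathway genes with a peak within their limits then numbered 7 under abiraterone (16) and 2 under Romidepsin (24). At that threshold, the q cutoff of the study's reporting form, the abiraterone peaks were the more numerous. This is the opposite of the order in the full lists. Among the 20000 peaks of highest −log10 p, which with ties were 26449 and 20877 peaks, 6 abiraterone and 4 Romidepsin peaks lay within the limits and 17 and 16 within 100 kb. A window of 250 kb held 116 abiraterone peaks (25.6 per Mb) and 183 Romidepsin peaks, and its Romidepsin density of 40.3 per Mb (34.7 to 46.6) lay above the whole list, as did that of 50 kb, 42.6 (32.3 to 55.3). Promoter-class peaks of up to 1 kb were 0 under abiraterone and 1 under Romidepsin. Abiraterone peaks overlapped by a Romidepsin peak numbered 0 where 50% of both peaks had to be shared and 4 within 500 bp. The conservative set gave the same values as the optimal set.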

Other observations

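Peaks of the smallest width came in pairs around several members. Pairs were taken as peaks of at most 130 bp whose starts were at most 500 bp apart, a rule chosen after seeing the data. Such pairs held 8 of the 40 abiraterone peaks around the members (20%, against 19.9% of the whole list) and 4 of the 79 Romidepsin peaks (5.06%, against 5.14%). Under abiraterone they lay in intron 3 of HSD17B3, in an AKR1C1 transcript within the AKR1C3 limits, upstream of AKR1C3 and in ASH2L near STAR. Under Romidepsin they lay upstream of SRD5A2. The median distance between the starts of a pair was 313 bp in both lists. What makes these pairs was not tested, and they count as 2 peaks each in every number above.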
